A study of Mus musculus with 5 samples.

Results

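Extracellular adenosine is made and removed by a short chain of proteins, and 4 genes of that chain were followed in sorted mouse regulatory T (Treg) cells: Entpd1, Nt5e, Adora2a and Ada. They were taken by their gene symbols, and all 4 were found among the 38130 entries of each deposited table, each with 1 entry. All 4 passed the filter on low values and are among the 11296 genes tested. Entpd1 encodes CD39, which strips phosphates from extracellular ATP and ADP to give AMP. Nt5e encodes CD73, which turns AMP into adenosine. Adora2a encodes the A2A receptor, which binds adenosine and raises cAMP through a stimulatory G protein, and Ada encodes adenosine deaminase, which converts adenosine to inosine. Treg cells of mice are known for carrying CD39 and CD73 together on their surface, and adenosine made there is a known way in which they restrain effector T cells that carry the A2A receptor.

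RNA was sequenced from CD4+YFP+ cells of C57BL/6 mice in 5 libraries of 4 groups. The KI group (2 libraries, 6 weeks of age) carried Foxp3Cre-YFP with 1 floxed Malt1 allele and a Malt1 allele with the C472A change, described by the labels as inhibiting Malt1 protease activity in Treg cells. The KO group (1 library, 21 days) carried Foxp3Cre-YFP with both Malt1 alleles floxed, so that Malt1 is deleted in Treg cells. The wild-type (WT) groups (1 library at 6 weeks and 1 at 21 days) were Foxp3-Cre-YFP reporter mice. Malt1 is a protease and scaffold that relays antigen receptor signals to NF-kB. All groups carry Cre-YFP driven by Foxp3, the defining transcription factor of Treg cells, and the KI mice carry 1 floxed Malt1 allele beside the C472A allele. The labels do not say how many animals gave each library or whether the KI libraries came from separate animals, so the spread between them may be technical.

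The values are FPKM, fragments per length of transcript and total of mapped fragments, each with a lower and an upper bound. They were divided by a factor per library, the median ratio to the mean library, and are called scaled FPKM. The bounds lie 2 standard errors to each side and hold no variation between mice. Each difference is taken between values of log2(scaled FPKM + 1). The libraries fell into sets that crossed genotype and age. Depth estimated from the bounds was 24.7 and 24.1 M (mega) fragments in KI and 28.1 M in 21-day WT, but 7.70 M in KO and 6.81 M in 6-week WT. Of all tested genes, 47.2% had the KI and WT 21-day libraries all above or all below KO and 6-week WT. Each age-matched comparison runs across these sets, so the value against the other WT library is given beside it. Malt1 itself had 55.9 and 37.8 scaled FPKM in KI, 17.6 in KO, 15.2 in 6-week WT and 27.0 in 21-day WT. A value summed over the gene does not test the deleted part, and KO here means the library labelled so.

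The libraries carried the defining genes of Treg cells, and transcripts of several other cell types were most abundant in 6-week WT. The 10 Treg markers, Foxp3 among them, summed to 1356 and 1273 scaled FPKM in KI, 714 in KO, 747 in 6-week WT and 1122 in 21-day WT, and none was at 0. The 10 myeloid markers summed to 52.3 and 31.6 in KI, 61.2 in KO, 148 in 6-week WT and 38.0 in 21-day WT, and all 10 were highest in 6-week WT. The 8 plasmacytoid dendritic cell markers summed to 34.3 and 38.7 in KI, 56.3 in KO, 143 in 6-week WT and 51.0 in 21-day WT, with 6 of 8 highest in 6-week WT and Siglech at 0 in KI replicate 1. The 7 B cell markers summed to 4.53 and 3.19 in KI, 9.02 in KO, 24.4 in 6-week WT and 18.0 in 21-day WT. The 5 natural killer cell markers summed to 2.42 and 2.21 in KI, 19.6 in KO, 8.18 in 6-week WT and 3.03 in 21-day WT. In KO most of that sum was 1 gene, Gzma, at 14.9. The others there were Eomes at 2.76, Klrb1c at 1.82, Ncr1 at 0.194 and Klra8 at 0. The sum therefore does not measure natural killer cells in KO. B cells and myeloid cells can carry CD39 and CD73. The part of these cells in the results below was not tested. In such pooled cells, fewer cells with a transcript and less of it per cell cannot be told apart.

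Entpd1 and Nt5e differ in how many places their transcripts start. The deposited tables give Entpd1 (ENSMUSG00000048120, chromosome 19, 40612366 to 40741602, plus strand, GRCm38) 11 start sites and Nt5e (ENSMUSG00000032420, chromosome 9, 88327609 to 88372089, plus strand) 1 start site. GENCODE M21 lists 11 transcripts of Entpd1, 4 of them protein coding, with lengths of 204 to 4221 bases. For Nt5e it lists 4 transcripts with 4 starts, 1 of them protein coding, so the contrast in starts is smaller there than in the deposited tables. The 250 bases before the RefSeq starts (GRCm38.p6, all plus strand) are shown to compare the pair of Entpd1 starts in that table with the start of Nt5e. The first Entpd1 window, chr19:40612116-40612365, ends at the 5′ end of the gene. The second, chr19:40659520-40659769, lies inside the gene. The Nt5e window is chr9:88327359-88327608. Capitals mark matches, on either strand, to TGACG (a piece of the cAMP response element), ACGTG (the core of the hypoxia response element) or GGGNNNNNCC (a loose kappa-B motif).
Entpd1 start 1: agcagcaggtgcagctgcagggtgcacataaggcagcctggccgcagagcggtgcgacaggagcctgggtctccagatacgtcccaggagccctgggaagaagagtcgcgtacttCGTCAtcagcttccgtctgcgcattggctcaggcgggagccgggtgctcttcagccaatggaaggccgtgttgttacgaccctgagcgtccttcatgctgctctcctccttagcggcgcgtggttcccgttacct
Entpd1 start 2: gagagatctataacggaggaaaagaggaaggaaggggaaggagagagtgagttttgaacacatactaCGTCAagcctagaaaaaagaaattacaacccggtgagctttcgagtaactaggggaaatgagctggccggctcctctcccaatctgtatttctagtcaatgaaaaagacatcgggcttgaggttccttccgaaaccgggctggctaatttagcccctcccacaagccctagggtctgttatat
Nt5e: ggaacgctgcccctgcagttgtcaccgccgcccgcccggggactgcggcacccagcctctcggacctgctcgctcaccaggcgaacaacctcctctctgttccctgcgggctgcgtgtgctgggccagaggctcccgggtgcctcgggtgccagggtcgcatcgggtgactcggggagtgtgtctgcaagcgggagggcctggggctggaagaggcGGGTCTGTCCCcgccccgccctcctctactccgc
Both Entpd1 windows held 1 TGACG match and neither of the other motifs, with a GC share of 62.4% at the first start and 47.2% at the second. The Nt5e window, with a GC share of 72.0%, held a pair of overlapping GGGNNNNNCC matches, read from opposite strands, and neither of the other motifs. Of the 32851 windows of this length in the RefSeq table, 17.8% held TGACG, 16.6% ACGTG and 45.8% GGGNNNNNCC, so these matches are common. They are matches of letters only.

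The bounds of Entpd1 were wide in the same libraries in which its value was high. The relative error, the distance from value to bound as a share of the value, was 71.9% and 17.3% in KI, 30.8% in KO, 37.5% in 6-week WT and 74.99% in 21-day WT. In KI replicate 1 and in 21-day WT 99.4% and 99.6% of the genes at a like level (within 1.5-fold) had narrower bounds. A gene counted in 7.74 fragments in KI replicate 1, or 7.11 in 21-day WT, would have bounds as wide, although these are among the deepest libraries. Genes at 10 to 30 scaled FPKM with 10 or more start sites had a median relative error of 11.6% in KI replicate 1 (316 genes) and 10.2% in 21-day WT (328 genes), against 6.88% and 6.30% for genes with 1 start site, so Entpd1 was far wider than most genes with many starts. For Nt5e it was 2.74% and 2.52% in KI, 6.88% in KO, 5.54% in 6-week WT and 2.46% in 21-day WT. For Adora2a it ranged from 5.58% to 13.2% and for Ada, the lowest of the 4, from 19.3% to 30.4%.

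**Figure D1:**
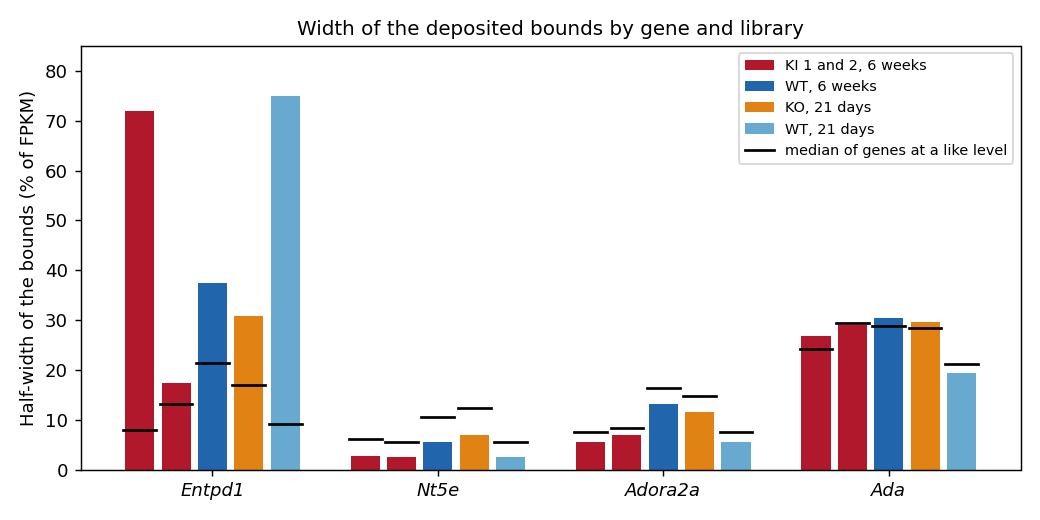
Distance from value to bound as a percent of the FPKM, for each gene (groups of bars) and library (bars, from left KI 1, KI 2, 6-week WT, KO, 21-day WT), with the median of tested genes within 1.5-fold of the same level as a black line. Entpd1 reaches 71.9% in KI replicate 1 and 74.99% in 21-day WT, while every Nt5e bar stays at or below 6.88%.

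The 4 genes stood in the same order in all 5 libraries, Nt5e above Adora2a, Adora2a above Entpd1 and Entpd1 above Ada (levels per length). Nt5e lay above 91.1% and 91.6% of tested genes in KI, 75.3% in KO, 86.2% in 6-week WT and 91.8% in 21-day WT. Its bounds were clear of those of Adora2a in all 5 libraries. Adora2a and Entpd1, the neighbours in the middle, had overlapping bounds in KI replicate 1, KO and 21-day WT, and Entpd1 and Ada overlapped in 6-week WT. Enzyme activity and surface protein were not measured here.

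Nt5e, the gene of the adenosine-producing step, was lowest in KO and nearly equal in the KI libraries. It had 53.5 and 54.6 scaled FPKM in KI (bounds 52.0 to 54.9 and 53.2 to 56.0), or 54.0 ± 0.805 (SD, n = 2), against 37.3 in 6-week WT (35.2 to 39.3). KO had 21.6 (20.1 to 23.0) against 58.4 in 21-day WT (56.9 to 59.8). So both KI libraries were above WT of their age, and KO was below WT of its age. KO was below each of the other libraries without overlap of bounds. The share of all tested genes for which that held was not counted. For KO and 21-day WT alone, 51.7% of tested genes had bounds apart in either direction. The lack of overlap therefore says little by itself, and the bounds of Nt5e were narrow for its level. In KO only 5.66% of genes at a like level had narrower bounds. In KI the difference from 6-week WT was 0.52 on the log2 scale (SE 0.21), and limma made no call (adjusted p = 0.488 over all tested genes). In that fit 0 of the 4 genes were called, beside 0.00885% of all tested genes (1 gene), and 0 of the 4 had an unadjusted p under 0.05, beside 10.7% of all tested genes (1211). None was past 2-fold in both KI libraries, beside 5.81% of all tested genes. Against 21-day WT the KI difference was -0.11, so its direction depends on the control library. Only the KI pair gives replicates, with 1 residual degree of freedom, and limma moderates their spread toward the one of genes at a like level, so the SE is not that of the pair alone. The lone WT library is taken to vary in the same way.

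In KO the Nt5e difference from 21-day WT was -1.40, a ratio of 0.369, and 3.69% of tested genes lay lower in that comparison. Against 6-week WT, the library of like depth and other age, it was -0.76, a ratio of 0.578, below which lay 4.42% of tested genes. Nt5e was the 1 gene of the 4 past 2-fold against 21-day WT, beside 14.3% of tested genes past 2-fold in that comparison. None of the 4 was past 2-fold below both WT libraries, which held for 0.938% of tested genes. The bounds were apart between KO and 21-day WT for 2 of the 4, Nt5e and Adora2a, beside 51.7% of tested genes. KO and 21-day WT had 1 library each, so the difference has no replicate of its own. A limma fit on the 4 group means of all 5 libraries, which borrows its spread from the KI pair and from other genes, gave it an SE of 0.25 (unadjusted p = 0.00841, adjusted p = 0.457). In that fit the adjusted p was 0.915 for Entpd1, 0.621 for Adora2a and 0.700 for Ada, so 0 of the 4 were called, beside 0% of tested genes, and 1 of the 4 had an unadjusted p under 0.05, beside 10.4% of tested genes (1171). The Treg marker sum was 714 scaled FPKM in KO, 1122 in 21-day WT and 747 in 6-week WT, so it lay lower in KO than in either WT library too, by little against 6-week WT. Ctla4, an inhibitory receptor, made up 68.1% of the gap from 21-day WT, with 118 scaled FPKM in KO against 396 in 21-day WT. Of the 10 markers 7 were lower in KO than in 21-day WT and 3 were higher (Tnfrsf18, Capg and Tnfrsf4). Their part in the Nt5e value was not tested.

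**Figure D2:**
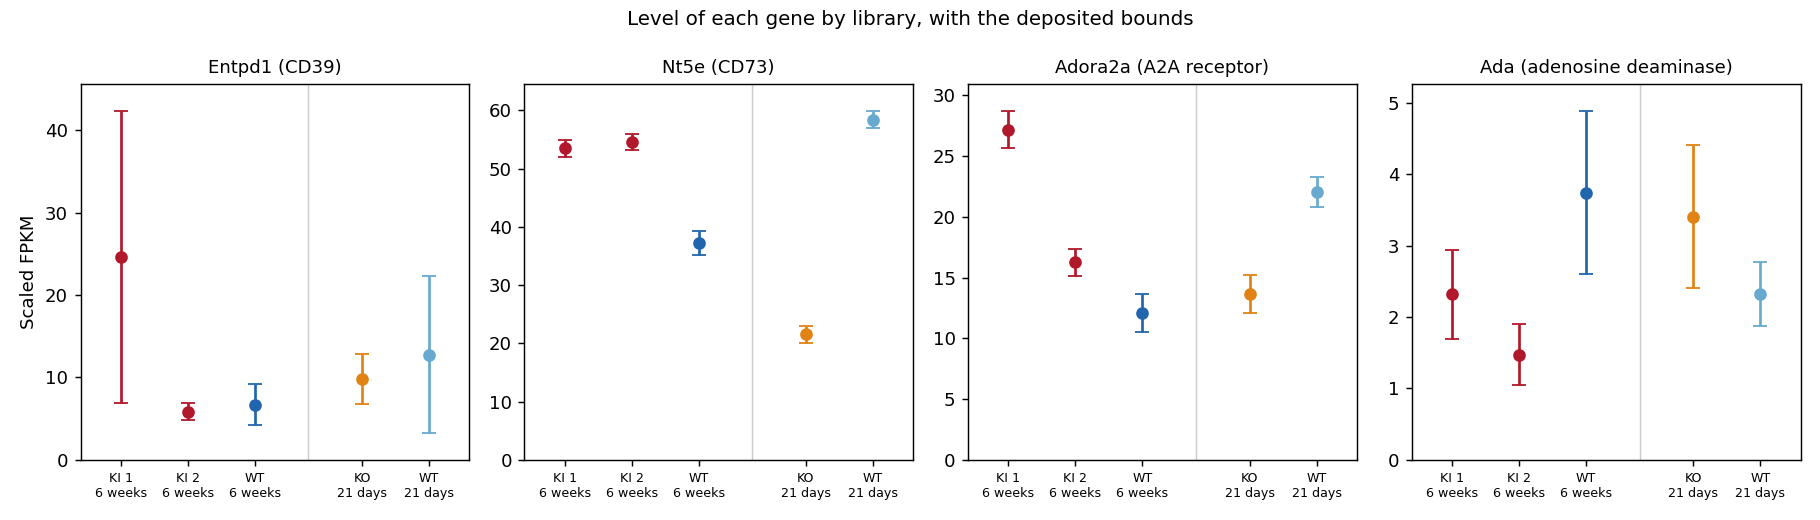
Scaled FPKM (vertical axis, from 0) of Entpd1, Nt5e, Adora2a and Ada in each library, grouped by age with the mutant left of WT. Points are single libraries and bars the deposited bounds of that library. Nt5e sits at 53.5 and 54.6 in KI, 37.3 in 6-week WT, 21.6 in KO and 58.4 in 21-day WT, while the Entpd1 bars of KI 1 and 21-day WT span most of its range.

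Entpd1, the gene of the first step, differed more within the KI pair than between any other libraries. It had 24.6 and 5.85 scaled FPKM in KI (bounds 6.91 to 42.3 and 4.84 to 6.87) against 6.68 in 6-week WT (4.18 to 9.18). KO had 9.80 (6.78 to 12.8) against 12.8 in 21-day WT (3.19 to 22.3). The KI libraries were the highest and the lowest of the 5 and lay on opposite sides of 6-week WT. Their values differed 4.20-fold, with bounds just apart (6.91 against 6.87), and Entpd1 was the 1 gene of the 4 past 2-fold within the KI pair, beside 6.59% of tested genes. The KI mean was 15.2 ± 13.2 (SD, n = 2) and the difference from 6-week WT 0.79 (SE 0.94, limma adjusted p = 0.752). It was 1.74 in KI replicate 1 and -0.16 in replicate 2, so 1 library decides its size and direction. Against 21-day WT it was -0.056. The KO difference was -0.35 with 21-day WT as control and 0.49 with 6-week WT, and bounds overlapped in both. With FPKM as deposited KO equalled 21-day WT (11.2 FPKM in each). A ratio of 3.68 between KI replicate 1 and 6-week WT left the bounds overlapping. From the bounds alone that difference of 1.74 had an SE of 0.55, which holds no variation between mice.

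Adora2a (ENSMUSG00000020178, chromosome 10, 75316943 to 75334788, plus strand), the receptor gene, lay above 6-week WT in each KI library. It had 27.2 and 16.3 scaled FPKM in KI (25.6 to 28.7 and 15.2 to 17.4), against 12.1 in 6-week WT (10.5 to 13.7). KO had 13.7 (12.1 to 15.2), against 22.1 in 21-day WT (20.8 to 23.3). KO and 6-week WT were thus the low libraries. The KI mean was 21.7 ± 7.70 (SD, n = 2) and the difference from 6-week WT 0.75 (SE 0.41, limma adjusted p = 0.553). It was 1.11 in replicate 1 and 0.40 in replicate 2, and -0.065 in the mean against 21-day WT, which lay between the KI libraries. The KO difference was -0.65 with 21-day WT as control and 0.17 with 6-week WT, where the bounds overlapped. It was the only adenosine receptor gene above the filter. Adora1 was listed at 0 in all 5 libraries, and Adora2b and Adora3 reached at most 0.0692 and 0.414 scaled FPKM.

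Ada (ENSMUSG00000017697, chromosome 2, 163726584 to 163750239, minus strand), a gene of adenosine removal, was low throughout. In the age-matched comparisons it differed in the direction opposite to Nt5e and Adora2a. It had 2.32 and 1.47 scaled FPKM in KI (1.69 to 2.94 and 1.05 to 1.90), against 3.74 in 6-week WT (2.60 to 4.88). KO had 3.41 (2.40 to 4.42), against 2.32 in 21-day WT (1.87 to 2.77). KI replicate 2 was clear of 6-week WT, while the bounds of replicate 1 overlapped with it. The KI mean was 1.89 ± 0.598 (SD, n = 2), and the difference from 6-week WT was -0.73 (SE 0.34, limma adjusted p = 0.516), -0.52 in replicate 1 and -0.94 in replicate 2. Against 21-day WT it was -0.21, the same direction as for Nt5e (-0.11) and Adora2a (-0.065) there. The KO difference was 0.41 with 21-day WT as control and -0.10 with 6-week WT. In KO against 6-week WT Nt5e was lower too (-0.76) and Adora2a higher (0.17). At these levels the pseudocount understates the change, and with a pseudocount of 0.1 the KI difference was -0.98.

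For 3 of the 4 genes, Nt5e, Adora2a and Ada, both KI libraries lay on 1 side of 6-week WT and KO on the other side of 21-day WT. This held for 54.3% of all tested genes, so it is the usual pattern here. The same 3 genes had both KI libraries and 21-day WT all above KO and 6-week WT, or for Ada all below. This was so with FPKM as deposited too. With scaled FPKM that split held for 47.2% of all tested genes. The WT libraries differ along that line: 6-week WT lay from 21-day WT by -0.63 for Nt5e, -0.82 for Adora2a, -0.84 for Entpd1 and 0.51 for Ada. None of these was past 2-fold, beside 8.56% of tested genes between the WT libraries. Bounds were apart for Nt5e and Adora2a and overlapped for Entpd1 and Ada. The share of all tested genes with bounds apart was not counted for the WT libraries. It was 51.7% between KO and 21-day WT, but that pair had more genes past 2-fold (14.3%). That share is therefore not the background for the WT libraries. Between the WT libraries depth, age and the marker sums of other cells move together and cannot be told apart. Within each age, genotype and depth move together and cannot be told apart either.

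**Figure D3:**
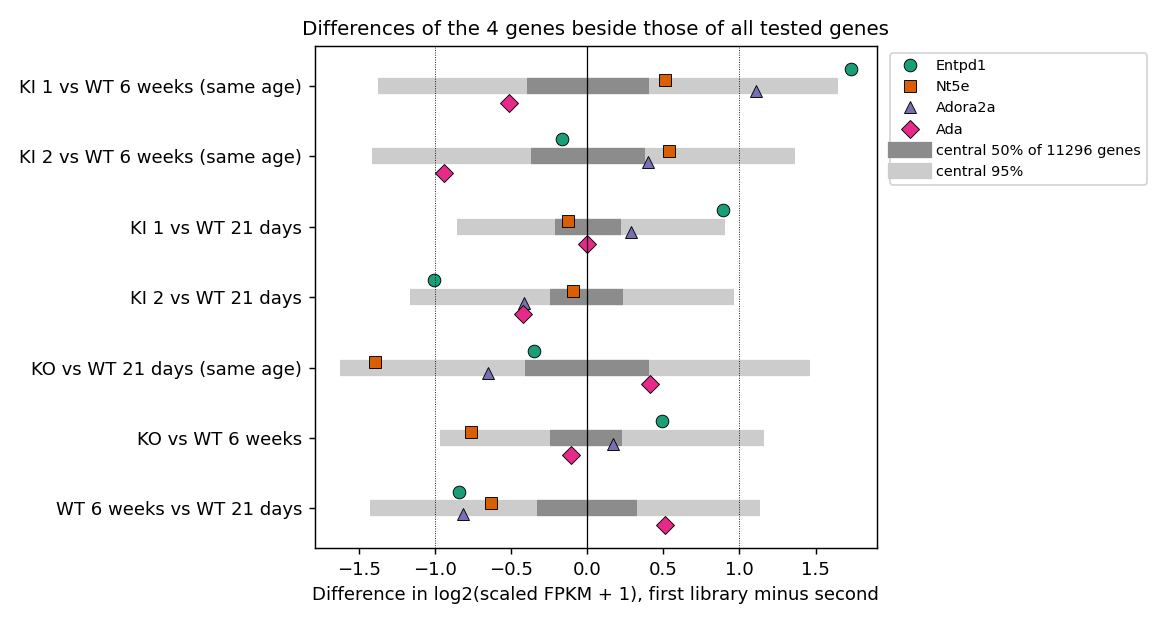
Differences in log2(scaled FPKM + 1) between single libraries (rows, first minus second) for the 4 genes (symbols), over the central 50% and 95% of the 11296 tested genes (dark and light bars); dotted lines mark 2-fold. Entpd1 lies at 1.74 in KI 1 and at -0.16 in KI 2 against 6-week WT, and Nt5e lies at -1.40 and -0.76 for KO against the WT libraries.

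All 3 mutant libraries together were compared with both WT libraries, with age as a term. None of the 4 genes was called (limma), beside 0% of tested genes, and 0 of the 4 had an unadjusted p under 0.05, beside 216 genes in all. The differences were 0.30 for Entpd1 (SE 0.63), -0.30 for Nt5e (SE 0.47), 0.15 for Adora2a (SE 0.43) and -0.24 for Ada (SE 0.42). With errors of this size the absence of a call does not show that the genes are alike in mutants and WT.

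Around these 4, 110 genes in 7 lists were read for the rest of the pathway (surface enzymes, NTPDases inside the cell, receptors, nucleoside transporters, adenosine and AMP metabolism, ATP release with P2 receptors, and the cAMP arm), and 64 were tested. In KI against 6-week WT, 3 lay past 2-fold above in both libraries, P2ry10, Crem and Akap13, and 2 below, Ampd1 and Pde3b, together 7.81% of the 64 beside 5.81% of all tested genes. Against 21-day WT 0 of the 64 were past 2-fold in both KI libraries, beside 1.19% of all tested genes. The median difference of the 64 was 0.15, beside -0.0045 for all tested genes. Limma called 0 of the 64, with 7 at an unadjusted p under 0.05, those 5 with Nt5c and P2ry14, or 10.9% beside 10.7% of all tested genes. In KO against 21-day WT, 2 lay past 2-fold above, Entpd4 and Rapgef3, and 8 below, Nt5e, Cd38, Art2b, P2ry10, Creb1, Pde2a, Pde4b and Akap13. These are 15.6% of the 64, beside 14.3% of all tested genes, so both counts are near the background. The median was -0.01 beside 0.02 for all. With FPKM as deposited the KO split was 5 above and 4 below, where the median of all genes moved to 0.35, and the KI split was 2 above and 3 below, where it moved to -0.26. Past 2-fold in KO against both WT libraries were Rapgef3 above (1.56% of the 64, beside 2.17% of all tested genes) and Cd38 and Art2b below (3.12%, beside 0.938%).

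Of 16 genes of surface enzymes 8 were tested, and 0 were past 2-fold in both KI libraries. In KO against 21-day WT 3 of the 8 were past 2-fold, all lower (Nt5e, Cd38 and Art2b). That is 37.5%, beside 14.3% of all tested genes past 2-fold. Below both WT libraries past 2-fold were 25% of the 8, beside 0.938% of all tested genes. The list is small. Art2b, an ADP-ribosyltransferase of mouse T cells that uses extracellular NAD and can open the P2X7 channel, had 3.38 and 35.3 scaled FPKM in KI, against 29.1 in 6-week WT. KO had 6.67 against 29.9 in 21-day WT. KI replicate 1 and KO were the low libraries, and the KI replicates differed more for Art2b than for any of the 4 adenosine genes. Art2b has a close copy in the mouse genome, so its reads may be split and its value is uncertain. Cd38, an enzyme that breaks down NAD, had 1.96 and 4.90 in KI against 4.10 in 6-week WT, and 0.826 in KO against 6.15 in 21-day WT. Dpp4, the peptidase CD26 that anchors adenosine deaminase on human T cells, had 29.5 and 21.1 in KI against 13.3 in 6-week WT, and 22.0 in KO against 19.7 in 21-day WT. Other surface NTPDases, Entpd2, Entpd3 and Entpd8, reached at most 0.378 scaled FPKM, so Entpd1 was the main gene of that kind in these cells.

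All 4 NTPDases of inner membranes were tested and 0 were past 2-fold in both KI libraries. In KO against 21-day WT 1 of the 4, Entpd4, was past 2-fold (25%, beside 14.3% of all tested genes). Entpd4, of the Golgi and lysosomes, had 2.07 and 1.15 in KI against 3.44 in 6-week WT, and 6.50 in KO against 1.48 in 21-day WT. Entpd5 of the endoplasmic reticulum ranged only from 9.63 to 12.2 over the libraries. Of 7 nucleoside transporters 3 were tested, and 0 were past 2-fold in both KI libraries or in KO against 21-day WT. Slc29a1, the equilibrative transporter ENT1 that carries adenosine across the cell membrane, ranged from 27.7 to 32.2, and Slc28a2, a sodium-coupled transporter, from 33.5 to 39.3. Slc29a3, an equilibrative transporter of lysosomes, varied more, with 5.72 and 7.89 in KI against 6.85 in 6-week WT, and 4.06 in KO against 7.58 in 21-day WT, so it was lowest in KO.

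Inside the cell, 19 of 27 genes of adenosine and AMP metabolism were tested, and 0 were past 2-fold in KO against 21-day WT. Ampd1, an AMP deaminase, was the 1 past 2-fold in both KI libraries, with 1.12 and 0.934 in KI, against 5.06 in 6-week WT. It had 1.47 in KO and 0.979 in 21-day WT, so 6-week WT alone was high. All 10 myeloid markers and 6 of 8 plasmacytoid dendritic cell markers were highest in 6-week WT too. Whether such cells bear on the Ampd1 value was not tested. Nt5c, a cytosolic nucleotidase, had 50.1 and 54.3 in KI against 85.4 in 6-week WT, and 88.8 in KO against 46.7 in 21-day WT. Adk, adenosine kinase, which returns adenosine to AMP, had 20.4 and 38.4 in KI against 19.4 in 6-week WT, and 19.6 in KO against 24.7 in 21-day WT; it was chosen for its role after its values were seen. Adk thus exceeded Ada in level in every library. Adss and Hprt, of purine synthesis and salvage, ranged from 35.7 to 53.4 and from 56.2 to 80.2.

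Of 17 genes of ATP release and P2 receptors 5 were tested. Past 2-fold was 1 of the 5, P2ry10, both in KI against 6-week WT and in KO against 21-day WT. That is 20%, beside 5.81% and 14.3% of all tested genes. P2ry10 carries a purinergic name but is known as a lysophosphatidylserine receptor. It had 126 and 133 in KI against 32.3 in 6-week WT, and 35.2 in KO against 113 in 21-day WT, so KO and 6-week WT were the low libraries. P2rx7, the ATP-gated channel of T cells, had 21.4 and 30.3 in KI against 16.7 in 6-week WT, and 14.5 in KO against 28.5 in 21-day WT. Panx1, a channel that releases ATP, ranged from 21.2 to 29.3.

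In the cAMP arm, 25 of 36 genes were tested, with 2 above (Crem and Akap13) and 1 below (Pde3b) past 2-fold in both KI libraries against 6-week WT, or 3 of 25 beside 5.81% of all tested genes. None of the 25 was past 2-fold in both against 21-day WT. In KO against 21-day WT 5 of the 25 were past 2-fold (20%, beside 14.3% of all tested genes). Crem, a cAMP-responsive transcription factor with inducible repressor forms, had 26.5 and 20.8 in KI against 8.61 in 6-week WT, and 12.3 in KO against 19.5 in 21-day WT. Akap13, an anchor of protein kinase A, had 107 and 105 in KI against 49.8 in 6-week WT, and 42.9 in KO against 92.9 in 21-day WT. Pde3b, a phosphodiesterase that breaks down cAMP, had 1.11 and 0.927 in KI against 5.07 in 6-week WT, and 2.75 in KO against 2.72 in 21-day WT, so KI was below every other library. Rapgef3, the cAMP sensor EPAC1, had 1.42 and 0.396 in KI against 0.161 in 6-week WT, and 3.29 in KO against 0.142 in 21-day WT. Gnas, the stimulatory G protein, and Prkar1a, a regulatory subunit of protein kinase A, had the highest means of the list, at 146 to 223 and 93.6 to 146.

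**Figure D4:**
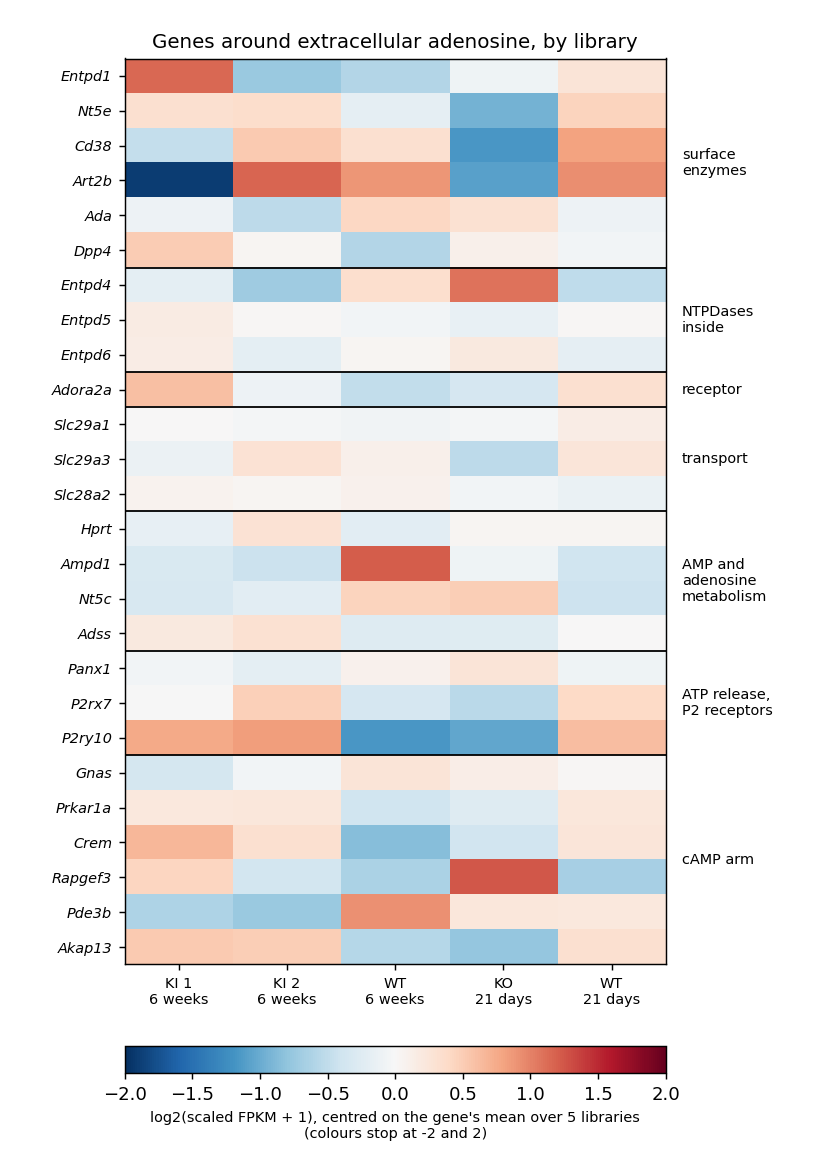
log2(scaled FPKM + 1) of the named genes (rows, by list) in each library (columns), centred on each gene's mean over the 5 libraries; red is above and blue below the mean. Nt5e and Cd38 are lowest in KO, Art2b is low in KI 1 and KO, Entpd1 is highest in KI 1, and P2ry10, Crem and Akap13 are low in KO and 6-week WT.

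The genes most like each of the 4 over the 5 libraries were found among protein-coding genes at a mean of 5 scaled FPKM or more, by the root mean square difference between centred log2 profiles. Nearest to Nt5e were Sesn3 (0.09), Mapk8 (0.09) and Apc (0.10), among 7169 genes compared, of which 347 lay within 0.25. Nearest to Adora2a were Stat5a (0.04), Ulk1 (0.06) and Smurf2 (0.07), with 560 genes within 0.25. Stat5a had 45.4 and 28.9 scaled FPKM in KI, 23.5 in KO, 20.2 in 6-week WT and 36.0 in 21-day WT. Nearest to Entpd1 were Plk3 (0.14), Got1 (0.15) and Klf10 (0.19), with only 10 genes within 0.25. Plk3 had 31.0 and 9.57 in KI, 15.4 in KO, 9.86 in 6-week WT and 15.8 in 21-day WT. Nearest to Ada were Abhd8 (0.04), Rp9 (0.04) and Abtb1 (0.05), with 1207 genes of 7170 within 0.25. With 5 libraries in sets, likeness of this kind is a description of the profile only.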

How the data were processed

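RNA was measured by sequencing in 5 libraries of sorted CD4+YFP+ Treg cells. Per the submitters' processing notes, the authors used CASAVA, HISAT2 2.1.0 and Cufflinks 2.2.1 on GRCm38; settings, annotation release and strand were not given in the sources used here, so overlapping and antisense genes cannot be separated. The deposited values are gene FPKM with bounds, per the file headers, without counts. Depth is an estimate from the bounds of 156 genes with 1 transcript and start site each (quartiles 5.95 to 7.46 M fragments in 6-week WT, 21.0 to 31.6 M in 21-day WT). Scaling used 9874 genes whose FPKM reached 1 in every library (factors of 0.868 and 1.01 in KI, 1.15 in KO, 1.15 in 6-week WT, 0.876 in 21-day WT). The filter kept genes averaging 1 or more scaled FPKM over the libraries. These entered limma 3.58.1 in R 4.3.3, two-sided with a mean-variance trend and pseudocount 1, and calls were made at a Benjamini-Hochberg adjusted p of 0.05. The fit was tested on simulated data with independent noise of the same size for every gene and no sets of libraries. That does not show how it performs on libraries that fall into sets as these do. KO against WT and WT against WT have 1 library a group and are given as differences; for KO against 21-day WT a limma fit on 4 group means is an alternative, and WT against WT was not tested. Of 110 pathway genes 108 were matched, 1 of them by gene ID, and Art2a and Aprt were not analysed here. For Adora3 and Pde4d, with several entries, the entry with the higher mean was used. Named genes are the 4 members, list genes past 2-fold in both KI libraries or in KO against both WT libraries, the 3 most abundant per list, and the 3 nearest profiles per member. Other genes named within a count were chosen after their values were seen. Members and lists were chosen with earlier results of these data known. Alternatives were the pseudocount, the scaling, the filter, protein-coding genes only, other control libraries and leaving out libraries. Promoter windows are from RefSeq (GRCm38.p6), which held Entpd1, Nt5e and Ada.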

Additional observations from a re-analysis of the deposited data

Results flagged for a closer look

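Nt5e, Adora2a and Ada were noted because both KI libraries differed from 6-week WT in 1 direction while KO differed from 21-day WT in the other. That pattern held for 54.3% of all tested genes. The genes were picked on the values tested next, so a large difference there was built in and is no separate support. The difference between these differences, (KI minus 6-week WT) less (KO minus 21-day WT), was 1.92 on the log2 scale for Nt5e (SE 0.33, limma on 4 group means, adjusted p = 0.237), a test added after the data were seen. It was 1.41 for Adora2a (SE 0.62, adjusted p = 0.356) and -1.14 for Ada (SE 0.52, adjusted p = 0.365). None passed the threshold, and over all 11296 genes 1 did, with 1887 at an unadjusted p under 0.05. The only replicates in this fit are the KI pair, whose spread limma moderates toward that of other genes. Age and depth differ between the pairs in the same way as the genotypes. For Entpd1, which lacked the pattern, the difference between the differences was 1.14.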

How the results depend on the processing

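No paired analysis was possible because KO and both WT groups have 1 library each and the labels pair none of them. With 21-day WT as the control for KI, the differences of Entpd1, Nt5e and Adora2a turned to -0.056, -0.11 and -0.065. In the other alternatives the KI directions held, except for Entpd1 without KI replicate 1, and limma called none of the 4 genes in any. Without a KI replicate, the KI difference ran from -0.16 to 1.74 for Entpd1, 0.51 to 0.54 for Nt5e, 0.40 to 1.11 for Adora2a and -0.94 to -0.52 for Ada. For KO, the Nt5e difference was -1.02 with FPKM as deposited and -0.76 against 6-week WT, that of Adora2a -0.29 and 0.17, and that of Ada -0.10 against 6-week WT. Between the WT libraries, Nt5e was at -0.25 with FPKM as deposited and -0.54 with FPKM scaled to a common sum, and Adora2a at -0.45 with FPKM as deposited. In all mutants against WT, leaving out a library moved Entpd1 over -0.35 to 0.79, Nt5e over -1.40 to 0.52, Adora2a over -0.65 to 0.75 and Ada over -0.73 to 0.41, with turns for Entpd1 and Adora2a without KI replicate 1 or 6-week WT, for Nt5e without KO or 21-day WT, and for Ada without 6-week WT.

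Limma called 1 gene in KI, and 50 with a pseudocount of 0.1, 2 with FPKM as deposited, 15 over protein-coding genes, and 0 with FPKM scaled to a common sum, with no filter or against 21-day WT, where 1098, 2841 and 240 had an unadjusted p under 0.05. For all mutants it called 0, and 0 to 1 when a library was left out, the 1 without 21-day WT. Genes past 2-fold in both KI libraries numbered 656 (340 above, 316 below), 1055 with a pseudocount of 0.1, 384 over protein-coding genes, 134 against 21-day WT and 1260 to 1492 in a lone KI library; the split was 217 above and 539 below with FPKM as deposited and 594 above and 360 below with FPKM scaled to a common sum. For KO 1613 became 632 against 6-week WT, and the split of 693 above and 920 below became 1509 and 493 with FPKM as deposited. Between the WT libraries 967 (382 above, 585 below) became 1498 with a pseudocount of 0.1 and 525 over protein-coding genes, and split 988 above and 340 below with FPKM as deposited, and 649 above and 644 below with FPKM scaled to a common sum. Of pathway genes, 5 in KI became 0 against 21-day WT and 7 to 13 in a lone library, and 10 in KO became 4 against 6-week WT (alternatives chosen after seeing the data). The cause was not tested. Depth limits KO and 6-week WT most, and the files hold no counts.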

Other observations

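The levels of Nt5e and Adora2a relative to Ada, a gene of adenosine removal, differed between the sets of libraries. The ratio of Nt5e to Ada, both per length, was 23.1 and 37.1 in KI, 6.32 in KO, 9.97 in 6-week WT and 25.2 in 21-day WT. The ratio of Adora2a to Ada was 11.7 and 11.1 in KI, 4.01 in KO, 3.23 in 6-week WT and 9.51 in 21-day WT. Both ratios were higher in the KI libraries and 21-day WT than in KO and 6-week WT. This had to follow from the levels, as Nt5e and Adora2a were higher and Ada lower in those libraries. It is thus the same split restated, not a further result. Of all tested genes 47.2% had levels that split these libraries, all above or all below. The share for ratios of genes was not counted. Ada, the divisor, had a relative error of 19.3% to 30.4%. These ratios do not depend on the scaling between libraries.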
